A study of Mus musculus with 6 samples.

Results

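The *Pax* genes encode transcription factors that bind DNA through a paired domain, and *Pax9*, the gene that was deleted in this study, is a member of the family. *Pax1*, *Pax2*, *Pax3*, *Pax5*, *Pax6*, *Pax7*, *Pax8* and *Pax9* were looked up by symbol in the deposited table, which lists 14647 genes, and the values of 6 of these 8 genes are reported. *Pax2* and *Pax5* were not analysed here. RNA was sequenced from the pharyngeal region of *Pax9*-null (*Pax9*-/-) and wild-type (*Pax9*+/+) mouse embryos at E9.5, matched for somite stage, with 3 libraries per genotype, all on a C57Bl/6J background. The null allele was inherited through the germline, so that every tissue of a *Pax9*-null embryo carried it. The tissue ran from between the first and second pharyngeal arches to the base of the heart, and therefore held pharyngeal endoderm, ectoderm, neural crest, mesoderm and other tissue in the block. In such bulk tissue, fewer cells of a type and less RNA per cell cannot be told apart.

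Paired domain proteins fall into classes by what else they carry. *Pax1* and *Pax9* are close paralogues without a homeodomain, expressed in the endoderm of the pharyngeal pouches and in the sclerotome, and the pouches give rise to the thymus and parathyroid glands. *Pax3* and *Pax7* carry a paired domain and a homeodomain and are known from the dorsal neural tube, neural crest and somite muscle precursors. *Pax6*, which has the same pair of domains, is known from the eye and from progenitors of the ventral neural tube. *Pax8* belongs with *Pax2* and *Pax5* to the class with a partial homeodomain and is known from the thyroid, kidney and inner ear. Closely related genes can stand in for each other, and the comparison of *Pax1* between genotypes asks whether the closest relative of *Pax9* was higher where *Pax9* was lost.

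The members were compared in the reference sequence of a 90-base window of the paired box (GRCm38, GENCODE M21). It lies in coding exon 2 of each gene. The window was picked as the coding stretch most alike between *Pax9* and *Pax1*. In *Pax3* and *Pax7* the stretch that best matched the *Pax9* window was taken. The counts of identical bases therefore do not rank how related the genes are. The window is shown for the pairs *Pax9* and *Pax1*, and *Pax3* and *Pax7*, because the results below turn on these pairs. All 4 sequences are written 5′ to 3′ on the gene's own strand, and capitals mark bases that differ from *Pax9*.
Pax9: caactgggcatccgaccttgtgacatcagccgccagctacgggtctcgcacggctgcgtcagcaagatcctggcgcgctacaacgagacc
Pax1: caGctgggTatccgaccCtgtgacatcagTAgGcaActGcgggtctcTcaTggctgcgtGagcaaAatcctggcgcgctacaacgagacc
Pax3: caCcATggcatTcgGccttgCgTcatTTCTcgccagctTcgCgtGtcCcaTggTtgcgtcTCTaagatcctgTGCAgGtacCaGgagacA
Pax7: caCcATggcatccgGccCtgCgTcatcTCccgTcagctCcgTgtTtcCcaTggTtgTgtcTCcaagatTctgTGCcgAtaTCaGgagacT
These windows lie at chr12:56696669-56696758 (plus strand) for *Pax9*, chr2:147365828-147365917 (plus strand) for *Pax1*, chr1:78195293-78195382 (minus strand) for *Pax3* and chr4:139830180-139830269 (minus strand) for *Pax7*. *Pax1* was identical to *Pax9* at 78 of the 90 bases. *Pax3* and *Pax7* were each identical to *Pax9* at 62 bases and to each other at 75. In *Pax6* and *Pax8* an exon boundary cuts this window, so it is not shown. The likeness was too short-ranged for longer reads to be shared: no word of 50 bases occurred in the transcripts of any pair of the 6 genes. Of words of 25 bases, the *Pax1* and *Pax9* transcripts shared 2.

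The deposited values are log2 RPKM, that is, reads divided by gene length in kilobases and by library size, on a log2 scale. The reads behind every value of the 6 genes could be recovered as whole numbers, with effective library sizes of 11509904 to 11728252 in the *Pax9*-null libraries and 12352677 to 12692324 in the wild-type libraries. Wild-type 3 stood apart from the other libraries. The summed level of 13 cardiomyocyte markers, which were measured because the block ended at the heart, was 81.4 RPKM there and between 1360 and 1760 RPKM in the other 5 libraries. Among markers of cells that the block can hold, the summed levels of erythroid and neuron markers did not overlap between genotypes. The same held for the sclerotome, nephric, interneuron, cofactor and *Pax9*-flanking lists below, and for 41.9% of single tested genes. No sum of a list was tested. Of the 10 erythroid markers, 2 were called higher (20%, against 26.7% of all tested genes called). The 10 summed to 2690 to 5020 RPKM in *Pax9*-null and 2450 to 2550 RPKM in wild-type libraries. The 15 neuron markers summed to 111 to 143 RPKM and 150 to 242 RPKM, respectively, and 5 were called lower (33.3%, against 26.7% of all tested genes called), with a median change of −0.70 in log2. With the trends of gene length and GC content described below removed, 2 of the 15 neuron and 0 of the 10 erythroid markers were called. Of all tested genes, 3.85% were called in that setting. The median change was then −0.69 for neuron markers and 0.35 for erythroid markers (0.62 before). *Cntn2*, an axonal adhesion protein, was the called neuron marker with the largest fall (−2.10 in log2, adjusted *P*=0.031 by limma), and it was not called without *Pax9*-null 3 (0.128). The part of these cell types in the *Pax* values was not tested.

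**Figure D1:**
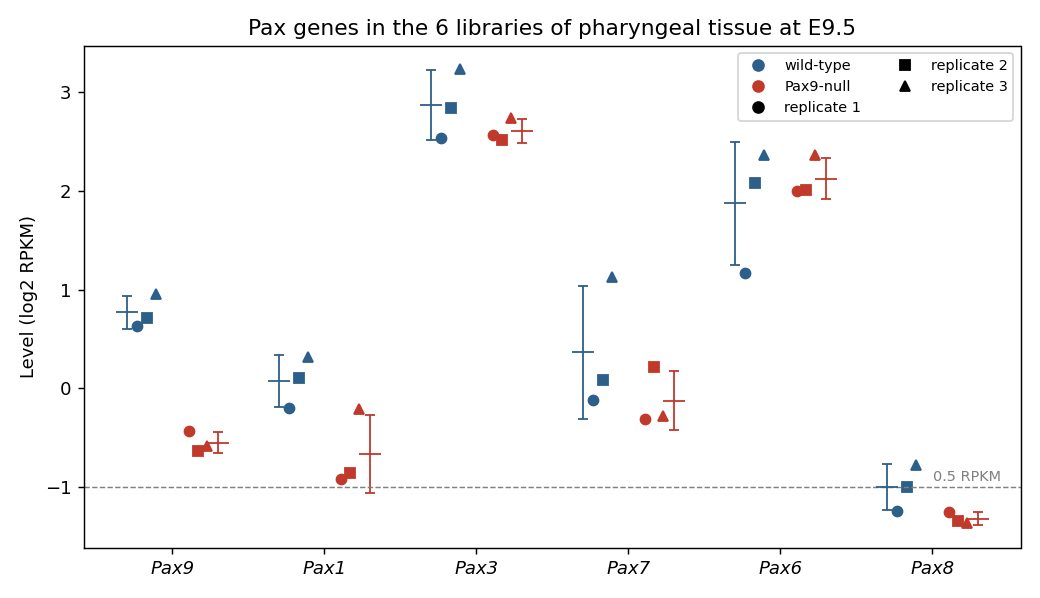
Log2 RPKM of the 6 *Pax* genes in each library, with wild-type in blue, *Pax9*-null in red and marker shape giving the replicate; the wider marks are the mean with SD bars (*n*=3), and the dashed line is the 0.5 RPKM filter. *Pax9*, *Pax1* and *Pax8* have no overlap between genotypes, and *Pax6* and *Pax7* spread most within the wild-type libraries.

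Of the 6 genes, 5 had a mean of at least 0.5 RPKM over all libraries and were tested with limma among 13547 genes, with a gene called at an adjusted *P* of at most 0.1. *Pax9* was called lower in *Pax9*-null embryos, and no other *Pax* gene was called in either direction. This is 1 of 5 tested members (20%), where 26.7% of all tested genes were called, 12% as lower and 14.7% as higher. The libraries of the genotypes did not overlap for 2 of the 5 tested members, *Pax9* and *Pax1*, and for 41.9% of all tested genes. A share this near to that of all genes is no result about the family, and *Pax9*, the deleted gene, is counted in both shares. Of the 5 tested members, 4, *Pax9* included, had lower means in *Pax9*-null embryos and *Pax6* a higher mean. The median of the 5 changes, with *Pax9* among them, was −0.49 in log2 against −0.00 over all tested genes. With trends of gene length and GC content removed, the median of the members was −0.14.

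*Pax9* (ENSMUSG00000001497, GRCm38 chromosome 12 from 56691767 to 56712822, plus strand) was measured at 0.743, 0.644 and 0.666 RPKM in *Pax9*-null libraries 1 to 3, from 43, 37 and 39 reads. In wild-type libraries 1 to 3 it was at 1.55, 1.64 and 1.94 RPKM, from 99, 102 and 123 reads. Every *Pax9*-null library lay below every wild-type library by a wide margin, and the *Pax9*-null libraries lay close together. In log2 this is −0.55 ± 0.11 (SD, *n*=3) against 0.77 ± 0.17 (SD, *n*=3). The log2 fold change had a 95% interval of −1.76 to −0.88 around −1.32 (SE 0.19), with an adjusted *P* of 0.0155 in limma, and 0.0591% of tested genes fell more. The level left was 40.1% of wild-type (95% interval 29.5 to 54.5%), so that transcript was still counted over the gene in *Pax9*-null embryos. The exons that the mutant allele lacks are not given in the sources used here, and the reads that remain cannot be placed within the gene. *Slc25a21*, a mitochondrial carrier gene on the opposite strand, shares 189 of the 5056 exonic bases (3.74%), and it was not called (log2 difference 0.40, SE 0.26, adjusted *P*=0.305 in limma). Leaving out any 1 library kept the call of *Pax9*, with the adjusted *P* highest, at 0.0933, without *Pax9*-null 3.

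*Pax1* (ENSMUSG00000037034, chromosome 2 from 147361925 to 147393295, plus strand) was not higher in any *Pax9*-null library than in a wild-type library. It was at 0.528, 0.551 and 0.863 RPKM in *Pax9*-null libraries 1 to 3, from 27, 28 and 45 reads. In wild-type libraries 1 to 3 it was at 0.869, 1.07 and 1.25 RPKM, from 49, 59 and 70 reads. *Pax9*-null 3 and wild-type 1 were almost level, so that the genotypes were only just apart. Counting error is wide at this depth, with an exact 95% Poisson interval of 17.8 to 39.3 for 27 reads, which covers counting error alone. The mean log2 level of *Pax9*-null embryos was −0.66 ± 0.39 (SD, *n*=3) and that of wild-type embryos 0.07 ± 0.26 (SD, *n*=3). A log2 fold change of −0.74 (SE 0.27) resulted, with a 95% interval of −1.37 to −0.11, which corresponds to 38.8 to 92.8% of the wild-type level. That interval, which is for the values as deposited, does not include a rise. With length and GC trends removed the difference was smaller (below), and no interval is given for it. The adjusted *P* of 0.101 by limma lay just above the threshold, and the exact permutation *P* was 0.1, the smallest that 3 libraries against 3 can give. Among tested genes, 2.95% fell more.

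Whether *Pax1* was called depended on the processing, whereas *Pax9* was called in all 17 alternatives. The size of both differences varied, from −0.96 to −0.33 in log2 for *Pax1* and from −1.39 to −0.68 for *Pax9*. *Pax1* is richer in G and C (57.1% of the bases of its longest transcript, against 46.7% for *Pax9*), and the values of the libraries trend with gene length and GC content. With these trends removed from each library, the log2 fold change of *Pax1* was −0.38 (adjusted *P*=0.42 by limma) and that of *Pax9* was −1.31 (adjusted *P*=0.0337), where 3.85% of all tested genes were called. *Pax1* was not called when any single library was left out, with log2 fold changes between −0.96 and −0.61. It was called, at adjusted *P* values between 0.0503 and 0.0994, under 6 other settings that changed the pseudocount, the variance model or the weights. The direction was the same under every setting tried. The antisense gene *AI646519* shares 183 exonic bases of *Pax1* (4.07%), and reads there could not be told apart by strand in the counting used.

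**Figure D2:**
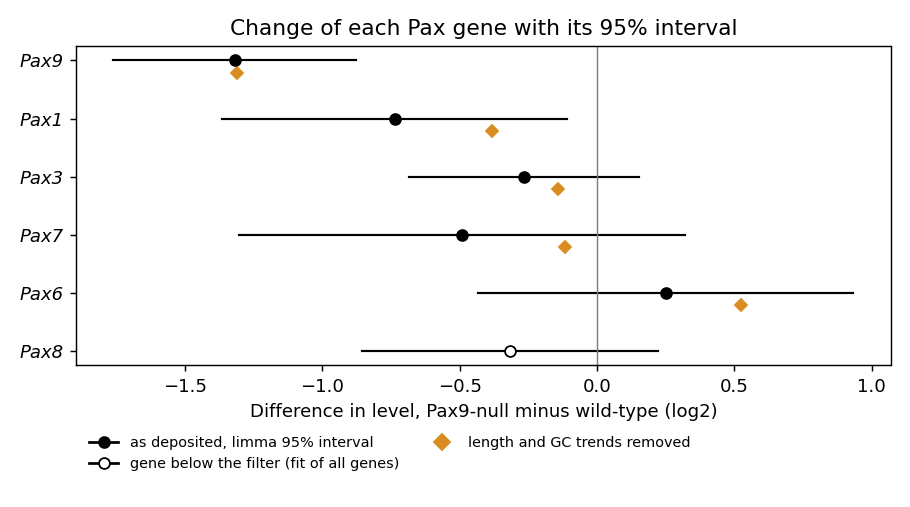
Log2 difference of each *Pax* gene (*Pax9*-null minus wild-type) with its 95% limma interval, as deposited (circles) and after removal of length and GC trends (diamonds; no interval drawn); the open circle is *Pax8*, from the fit without a filter. The intervals of *Pax9* and *Pax1* lie below 0, and the diamond of *Pax1* lies nearer to 0 at −0.38.

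The paralogues were then compared within each library, which is free of scaling between libraries. *Pax1* minus *Pax9* in log2 RPKM was −0.84, −0.61 and −0.64 in wild-type libraries 1 to 3, so that *Pax9* was the more abundant in each. In *Pax9*-null libraries 1 to 3 it was −0.49, −0.23 and 0.37, and *Pax1* was above *Pax9* in the third alone. The genotypes did not overlap, and the difference between their means was 0.58 (exact permutation *P*=0.1, two-sided, the smallest possible). *Pax9* is the deleted gene, and its own fall enters this difference, which therefore gives no measure of *Pax1* by itself. *Pax1* made up 35.9 to 39.5% of the summed RPKM of the pair in wild-type and 41.6 to 56.5% in *Pax9*-null libraries.

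The summed level of both genes was 2.42, 2.71 and 3.19 RPKM in wild-type libraries 1 to 3. It was 1.27, 1.19 and 1.53 RPKM in *Pax9*-null libraries 1 to 3, and every one of these lay below every wild-type library. The mean was 1.33 ± 0.175 RPKM (SD, *n*=3) in *Pax9*-null embryos against 2.77 ± 0.389 RPKM (SD, *n*=3), a ratio of 0.48 (exact permutation *P*=0.1, two-sided). In no *Pax9*-null library did the sum come into the wild-type range. *Pax9*, the deleted gene, is part of this sum, with a mean of 0.684 RPKM in *Pax9*-null and 1.71 RPKM in wild-type libraries. The lower sum therefore gives no measure of *Pax1* by itself.

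**Figure D3:**
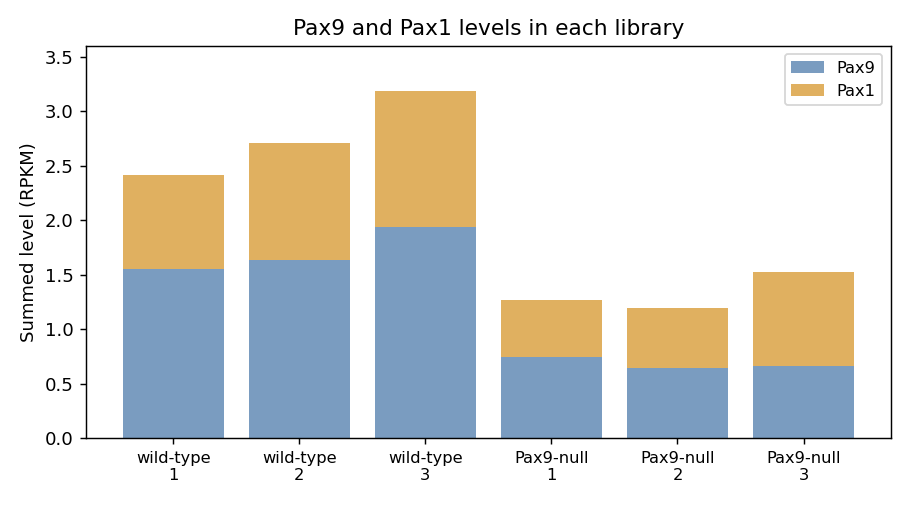
Summed RPKM of *Pax9* (blue) and *Pax1* (orange) in each library, stacked from 0. The wild-type bars reach 2.42 to 3.19 RPKM and the *Pax9*-null bars 1.19 to 1.53 RPKM, with both parts smaller than in any wild-type library.

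Genes known to work with *Pax1* and *Pax9* in the pharynx and sclerotome were measured as lists. Of 24 tested regulators of the pharyngeal endoderm and pouches, 2 were called higher and 2 lower (16.7% called, against 26.7% of all tested genes), and the median change was 0.03 in log2. With length and GC trends removed, 1 of them was called higher and 0 lower, where 3.85% of all tested genes were called. *Tbx1*, a T-box factor required for pharyngeal segmentation, was at 5.86, 5.65 and 5.11 RPKM in *Pax9*-null libraries 1 to 3 and at 7.38, 7.31 and 7.50 RPKM in wild-type libraries 1 to 3. The genotypes were apart, with a log2 difference of −0.42 (SE 0.10, adjusted *P*=0.0473 in limma). *Tbx1* was not called without *Pax9*-null 1 (adjusted *P*=0.157), *Pax9*-null 3 (0.13) or wild-type 3 (0.103), nor with length and GC trends removed (−0.11, 0.644). *Otx2*, a homeobox gene of the anterior head, was the called gene of the list with the largest rise (0.77, SE 0.22, adjusted *P*=0.0583) and was not called when any of the *Pax9*-null libraries was left out (0.115 to 0.198). *Hoxa3*, *Ripply3* and *Foxa2*, which are also needed for pharyngeal development, were not called.

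Epithelial markers are expressed in endoderm and ectoderm. None of 13 was called in either direction, against 26.7% of all tested genes called. Their summed level was 246 to 325 RPKM in *Pax9*-null and 224 to 291 RPKM in wild-type libraries, and the median change was −0.00 in log2. Of the 13, 6 had higher and 7 lower means in *Pax9*-null embryos, and the part of epithelial content in the *Pax9* and *Pax1* values was not tested. Of 14 sclerotome genes, 2 were called higher (14.3%, against 26.7% of all tested genes called) and 0 with length and GC trends removed, with a list median of 0.07 and summed levels of 185 to 196 and 169 to 182 RPKM. *Meox1*, a somite homeobox gene, was not called.

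*Pax3* (ENSMUSG00000004872, chromosome 1 from 78101267 to 78197134, minus strand) was the most abundant *Pax* gene of the block. It was at 5.93, 5.72 and 6.69 RPKM in *Pax9*-null libraries 1 to 3 and at 5.80, 7.18 and 9.44 RPKM in wild-type libraries 1 to 3. The genotypes overlapped, wild-type 1 lying among the *Pax9*-null libraries and wild-type 3 well above all others. The log2 level was 2.61 ± 0.12 (SD, *n*=3) against 2.87 ± 0.35 (SD, *n*=3), a difference of −0.26 (SE 0.18, 95% interval −0.68 to 0.15, adjusted *P*=0.324 by limma). This difference was smaller than the spread between wild-type libraries, and it was −0.08 without wild-type 3, −0.43 without wild-type 1 and −0.14 with length and GC trends removed.

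*Pax7* (ENSMUSG00000028736, chromosome 4 from 139737062 to 139833528, minus strand), the paralogue of *Pax3*, was lower in level. It was at 0.803, 1.16 and 0.822 RPKM in *Pax9*-null libraries 1 to 3 and at 0.921, 1.06 and 2.19 RPKM in wild-type libraries 1 to 3, with 54 to 78 and 68 to 161 reads. Apart from wild-type 3, the libraries of both genotypes lay within the same range. The log2 difference was −0.49 (SE 0.35, 95% interval −1.30 to 0.32, adjusted *P*=0.344 by limma) and −0.11 without wild-type 3. It was −0.12 (adjusted *P*=0.869) with length and GC trends removed. The interval allows a level between 40.5% and 125% of wild-type. The summed level of *Pax3* and *Pax7* was 6.73, 6.89 and 7.51 RPKM in *Pax9*-null libraries 1 to 3 and 6.72, 8.23 and 11.6 RPKM in wild-type libraries 1 to 3, which also overlapped.

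Markers of the tissues that express *Pax3* and *Pax7* were set beside them. Of 14 genes of the dorsal neural tube and somite muscle, 2 were called lower (14.3%, against 26.7% of all tested genes called), and 0 with length and GC trends removed. The median change was −0.19 in log2. Their summed level was 109 RPKM in wild-type 3 and 73.6 to 81.9 RPKM in the other 5 libraries. Wild-type 3 was the highest library for the list, *Pax3* and *Pax7*, and likewise for *Pax9*, *Pax1* and *Pax8*. *Eya2*, a transcriptional cofactor of muscle precursors and placodes, was the called gene of that list with the largest fall (−0.55, SE 0.17, adjusted *P*=0.0696). It was not called without *Pax9*-null 1 (0.217), *Pax9*-null 3 (0.174) or wild-type 3 (0.153). *Myf5*, a muscle determination factor, was not called. Whether the content of neural tube or somite set the *Pax3* and *Pax7* values was not tested.

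Of 18 neural crest genes, 3 were called lower and none higher (16.7% called, against 26.7% of all tested genes), and 0 were called with length and GC trends removed. The median change was −0.11 in log2, with summed levels of 499 to 512 RPKM in *Pax9*-null and 456 to 600 RPKM in wild-type libraries. *Sox10*, a crest factor known to act with *Pax3* on shared target genes, was at 2.40, 4.05 and 2.84 RPKM in *Pax9*-null libraries 1 to 3 and at 4.52, 4.43 and 4.70 RPKM in wild-type libraries 1 to 3. *Sox10* differed by −0.59 in log2 (SE 0.20, adjusted *P*=0.0828 in limma) and stayed called in 1 of the 6 fits that left out a library, the one without *Pax9*-null 2. *Foxd3* and *Snai2*, factors of premigratory crest, were not called. *Pax3* itself, a gene of early crest, moved within its replicate spread.

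*Pax6* (ENSMUSG00000027168, chromosome 2 from 105668900 to 105697364, plus strand) was the second most abundant member. It had 541, 540 and 706 reads in *Pax9*-null libraries 1 to 3 and 334, 612 and 756 reads in wild-type libraries 1 to 3. Its level was 4.39 ± 0.661 RPKM (SD, *n*=3) in the former and 3.88 ± 1.48 RPKM (SD, *n*=3) in the latter, with wild-type 1 at 2.25 RPKM. Wild-type 1 was thus low, and the other 5 libraries overlapped. The log2 difference was 0.25 (SE 0.29, 95% interval −0.43 to 0.93, adjusted *P*=0.573 by limma), and it turned to −0.10 without wild-type 1, so no direction can be given. With length and GC trends removed it was 0.53 (adjusted *P*=0.42). The summed level of the ventral neural tube progenitor genes was also lowest in wild-type 1, at 28.4 RPKM against 44.4 to 55.4 RPKM in the other 5 libraries. None of the 12 tested was called, against 26.7% of all tested genes called. *Olig2*, a factor of motor neuron progenitors, was among them. With length and GC trends removed, 1 of the 12 was called higher, where 3.85% of all tested genes were called. The list median was then 0.29 in log2 (0.06 before). *Pax6* minus *Pax3* in log2 RPKM was −1.36, −0.76 and −0.88 in wild-type libraries 1 to 3 and −0.57, −0.51 and −0.38 in *Pax9*-null libraries 1 to 3. These within-library values did not overlap (exact permutation *P*=0.1, the smallest possible), and neither gene was called. *Pax7* minus *Pax3*, compared in the same way, overlapped between genotypes (exact permutation *P*=0.5). Of single tested genes, 41.9% did not overlap, so the lack of overlap alone is no result about *Pax6* and *Pax3*.

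**Figure D4:**
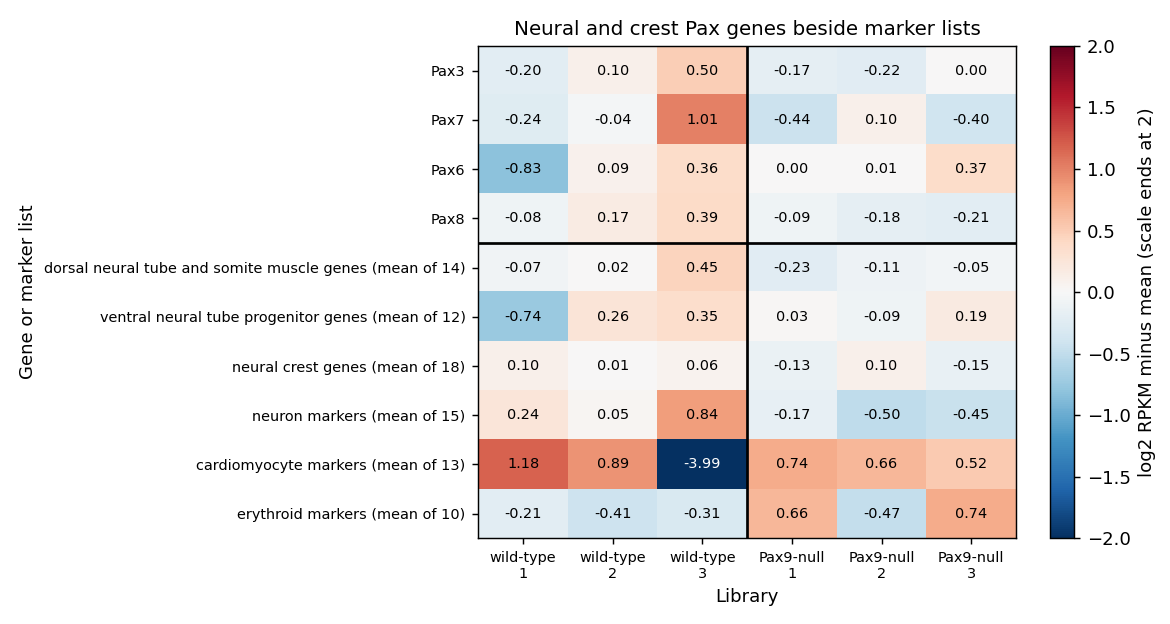
Log2 RPKM of 4 *Pax* genes and the mean of 6 marker lists in each library, each centred on its mean over the 6 libraries and printed in its cell. Wild-type 3 is high for *Pax7* (1.01), dorsal genes (0.45) and neuron markers (0.84) and low for cardiomyocyte markers (−3.99), and wild-type 1 is low for *Pax6* (−0.83) and ventral genes (−0.74).

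*Pax8* (ENSMUSG00000026976, chromosome 2 from 24420560 to 24475599, minus strand) was the least abundant and, with a mean of 0.451 RPKM over the 6 libraries, lay below the level needed for the test. It was at 0.420, 0.394 and 0.387 RPKM in *Pax9*-null libraries 1 to 3 and at 0.423, 0.501 and 0.584 RPKM in wild-type libraries 1 to 3. The genotypes did not overlap, but the nearest libraries, *Pax9*-null 1 and wild-type 1, had 29 and 32 reads. In a fit without a filter the log2 difference was −0.32 (SE 0.23, 95% interval −0.86 to 0.22, adjusted *P*=0.367 by limma), and the exact permutation *P* was 0.1. The antisense gene *Gm13415* shares 367 exonic bases of *Pax8* (6.06%).

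The tissues in which *Pax8* is known to act were represented by 4 lists. Of 18 otic and epibranchial placode genes, 1 was called lower and none higher (5.56% called, against 26.7% of all tested genes). The median change was −0.01 in log2. The nephric duct and intermediate mesoderm genes had 3 of 10 called lower (30%, against 26.7% of all tested genes) and a median of −0.35, which became 0 called and −0.24 with length and GC trends removed. They had summed levels of 28.3 to 34.0 RPKM in *Pax9*-null against 38.8 to 42.4 RPKM in wild-type libraries, so the genotypes did not overlap. *Gfra1*, a co-receptor for GDNF, was the called gene of that list with the largest fall (−0.87, SE 0.21, adjusted *P*=0.0448), and it was not called without *Pax9*-null 3 (−0.86, 0.128) or with length and GC trends removed (−0.73, 0.13). *Gata3*, which is in both lists, was not called. Only 2 thyroid primordium genes were tested and neither was called. The 3 measured summed to 0.923 RPKM in wild-type 3 and to 4.46 to 6.51 RPKM in the other 5 libraries. Wild-type 3 was also the library low in cardiomyocyte markers (81.4 RPKM). Whether heart tissue set the thyroid sum was not tested, so the sum is not read against *Pax8*. Of the interneuron and midbrain-hindbrain genes, 2 were tested and *Gbx2*, a homeobox gene of the hindbrain and pharynx, was called lower (−0.43, SE 0.14, adjusted *P*=0.0807), but was not called when any library was left out (0.106 to 0.246).

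Cofactors that Pax proteins are known to work with, or that act in a network with Eya and Dach proteins, were measured as a list. Of 18 tested, 5 were called lower and none higher (27.8% called, against 26.7% of all tested genes), and the median change was −0.19 in log2. With length and GC trends removed, 1 was called lower, where 3.85% of all tested genes were called, and the median was −0.05. *Eya4* had the largest fall (−0.66, SE 0.20, adjusted *P*=0.0667) and was not called without *Pax9*-null 1 (0.184), *Pax9*-null 3 (0.168), wild-type 1 (0.129) or wild-type 3 (0.142). *Eya1*, which is needed for thymus and parathyroid formation and is counted in 4 of these lists, was at 7.88, 6.86 and 6.32 RPKM in *Pax9*-null libraries 1 to 3 and at 9.14, 8.21 and 9.77 RPKM in wild-type libraries 1 to 3. *Eya1* differed by −0.37 in log2 (SE 0.12, adjusted *P*=0.083 in limma) and was called in 1 of the 6 fits that left out a library, the one without wild-type 2. Over the 12 regulators followed by name across these lists, *Tbx1*, *Eya1* and *Sox10* were called, and the other 9 had log2 fold changes between −0.27 and 0.58 with adjusted *P* values of at least 0.198. Once length and GC trends were taken out, *Cntn2* (0.0895) and *Eya4* (0.097) were still called among the genes named beside the members for their calls, and *Otx2* (0.123), *Eya1* (0.198), *Eya2* (0.221), *Sox10* (0.292), *Gbx2* (0.146) and *Mipol1* (0.327) were not. The log2 differences of these 6 were then 0.74 for *Otx2*, −0.29 for *Eya1*, −0.41 for *Eya2*, −0.34 for *Sox10*, −0.35 for *Gbx2* and 0.29 for *Mipol1*, each in the same direction as before.

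In wild-type libraries the members ranked *Pax3*, *Pax6*, *Pax9*, *Pax7*, *Pax1* and *Pax8* by mean RPKM, a scale that is per length. *Pax9* and *Pax7*, and *Pax7* and *Pax1*, overlapped between libraries and did not differ beyond their spread, whereas the other neighbours in the order did not overlap. In *Pax9*-null libraries *Pax7* came before *Pax9*, and *Pax9* overlapped with *Pax1* alone. The 5 tested members were of low to middling abundance, from *Pax1*, above 7.32% of tested genes, to *Pax3*, above 48.7%.

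The neighbours of the *Pax9* and *Pax1* genes were measured to show whether the loss extended along the chromosome. Of 8 tested genes flanking *Pax9*, none was called lower and 2 were called higher (25%, against 26.7% of all tested genes called). *Mbip* had a log2 fold change of 0.50 (adjusted *P*=0.042), which turned to −0.10 (0.514) with length and GC trends removed, and it was not called without *Pax9*-null 1 (0.167) or *Pax9*-null 3 (0.128). *Mipol1* had 0.44 (adjusted *P*=0.0951) and was not called when any library was left out (0.108 to 0.242). The 6 others lay between −0.32 and 0.40, with adjusted *P* values of at least 0.221. Of 6 tested genes flanking *Pax1*, none was called, with log2 fold changes between −0.41 and 0.31. Thus *Pax9* was the gene of its tested neighbourhood that was called lower.

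Genes with a pattern over the 6 libraries most like that of *Pax9* were found by the root mean square difference of log2 RPKM centred per gene. These were *Map6* (0.177), *Chrna4* (0.182), *Cdh15* (0.185), *Col16a1* (0.191) and *Ina* (0.209), on the values as deposited. Likeness to *Pax9* over these same libraries already entails a lower level in *Pax9*-null libraries. A call between genotypes is therefore no test of these genes, and none is given. With length and GC trends removed, the log2 differences were −0.58 for *Map6*, −0.86 for *Chrna4*, −0.77 for *Cdh15*, −0.68 for *Col16a1* and −1.10 for *Ina*. *Map6* is a microtubule protein, *Chrna4* a nicotinic receptor subunit, *Cdh15* a muscle cadherin and *Ina* a neuronal intermediate filament that is also in the neuron list. *Pax1* came 285th, at 0.394. The genes most like *Pax1* were *Hddc3* (0.0915), *Nr6a1os* (0.0997), *Sema5b* (0.128), *Rgma* (0.136) and *Rims2* (0.139), and *Pax9* came 2655th in that order.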

How the data were processed

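RNA was measured in 3 *Pax9*-null and 3 wild-type E9.5 pharyngeal regions. The deposited table holds log2 RPKM per gene and library. Per the paper and the labels, the authors trimmed reads (Trimmomatic 0.32), discarded redundant and multiply aligned reads, brought libraries down towards the size of the smallest, aligned to GRCm38 (STAR, 2.5.1a per the labels and another version in the paper) and counted them (featureCounts 1.5.1, defaults). The labels describe sorted cells and Smart-seq2, whereas the paper describes whole tissue and stranded TruSeq; the paper was followed.

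Reads were recovered from the deposited log2 values with a prior count of 0.5, and 82.7% of values came out whole within 0.05 of a read at GENCODE M21 gene lengths. The 13547 genes averaging 0.5 RPKM or more were tested with limma 3.58.1 (R 4.3.3; variance trend; Benjamini-Hochberg; called at an adjusted *P* of at most 0.1), a script checked on simulated data. Single quantities had an exact permutation test over libraries. *P* values measure the spread between these embryos. Length and GC trends were removed per library with natural splines in 13524 genes.

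Members, lists and tests were chosen with earlier results of these data known. Named were all members, the called gene of each list with the largest rise and fall, set regulators, flanking genes and the 5 genes most like *Pax9* or *Pax1*. *Nkx3-2*, *Nkx2-1* and *Lhx1* were not analysed here, and some list genes are not reported by name here. Alternatives changed filter, pseudocount, scaling, variance model, weights, threshold, block and libraries.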

Additional observations from a re-analysis of the deposited data

How the results depend on the processing

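*Pax9* was called lower in all 17 alternatives, with a log2 fold change of −1.39 to −0.68 and an adjusted *P* of 0.00836 to 0.0933. The number of *Pax* genes called was 1 in each fit that left out a library (1 to 1). It was 0 at a mean RPKM of at least 5, where *Pax3* alone was tested, and 2 with *Pax1* added under pseudocounts of 0.1 (log2 fold change −0.65, adjusted *P*=0.0988) and 1 (−0.33, 0.0963), no variance trend (−0.74, 0.0915), precision weights (−0.74, 0.0994), library weights (−0.88, 0.0503) and voom on recovered reads (−0.73, 0.0848; chosen after seeing the data). *Pax1* minus *Pax9* stayed between 0.34 and 0.93 and the summed RPKM difference between −1.62 and −1.24. Over all genes, 521 were called with length and GC trends removed, 1335 at an adjusted *P* of at most 0.05, and 175 to 3578 without a library (301 without *Pax9*-null 1, 175 without *Pax9*-null 3, 1799 without wild-type 1 and 2141 without wild-type 3). Of the called genes, 55.1% were higher, against 45.1% after quantile normalization, 86.7% without *Pax9*-null 1 and 87.4% without *Pax9*-null 3.

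*Pax6* reversed under library weights (−0.0038), and its range without a library was −0.10 to 0.50. *Mbip* reversed to −0.10, *Hoxa3* to 0.17, *Meox1* to −0.0472, *Snai2* to −0.27 and *Myf5* to −0.35 with trends removed. *Meox1* (−0.0313), *Foxd3* (−0.11) and *Myf5* (−0.0561) reversed under library weights, and *Meox1* (−0.0411) under quantile normalization. Without a library, *Hoxa3* ran from −0.28 to 0.018, *Meox1* from −0.075 to 0.15, *Foxd3* from −0.20 to 0.19 and *Myf5* from −0.0241 to 0.40. The cause was not tested.

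With replicate number as a block, 1377 genes were called (64.1% higher), *Pax9* had −1.32 (adjusted *P*=0.037) and *Pax1* −0.74 (0.125). Deviations of same-numbered libraries correlated at −0.02, −0.17 and 0.26, and not every library correlated best with its own number, so that the numbers were not taken as pairs. With the block, *Pax1* minus *Pax9* was 0.58 and the summed difference −1.44, each at an exact *P* of 0.25, the smallest that 3 pairs can give.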
